A study of Sus scrofa with 12 samples.

Results

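The 6 genes GHRL, HDC, TPH1, RAB3B, CHGA and SST, which mark the hormone and histamine cells of the stomach, were followed in the oxyntic mucosa, which lines the body of the stomach and secretes acid, of 12 piglets. They were chosen by gene name, with earlier results of these data known, and all 6 were found among the 10912 genes that the arrays measured with a single gene symbol. The piglets were caesarean-derived (Great York x Pietrain) x Dalland crosses, artificially fed and sampled at 2 weeks of age, with 1 array per piglet. All of them had received 2 mL of a starter microbiota of Lactobacillus amylovorus, Clostridium glycolicum and Parabacteroides spp. on days 1 to 3 of life. The 6 piglets of the complex association (CA) were then given diluted feces of an adult sow on days 3 to 4, whereas the 6 piglets of the simple association (SA) were given a placebo. Pasteurized sow colostrum was the feed at birth according to the sample labels, but the methods of the study name sow serum for this trial. The labels place the treatments in separate rooms and the methods do not, so that treatment and room may not be separable.

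In the oxyntic glands, hormones and amines are released by single endocrine cells scattered among the parietal and chief cells. Gastrin from the antrum acts on the enterochromaffin-like cells, which make histamine, and histamine drives the parietal cells to secrete acid through its H2 receptor. Somatostatin from the D cells restrains both steps. Ghrelin, the appetite hormone of the stomach, comes from another endocrine cell of the same glands, and serotonin is made by enterochromaffin cells. Mast cells make histamine too, and enteric neurons can make somatostatin and chromogranin A. A lower level of a gene in such bulk tissue cannot be told apart from fewer cells of its type.

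Expression was measured as a log2 intensity, the log2 of the array signal after the normalization of the authors, and a difference of 1 on this scale is a doubling. The median intensity of the arrays lay between 55.6 and 57.6, so that overall brightness was alike. The tissue carried the markers of its label: 9 of 9 measured genes of parietal cells lay above the median feature of the array (log2 intensity 5.82), against 0 of 5 of antrum and intestine. ATP4A, the catalytic subunit of the proton pump, had a mean of 12.01, and PDX1, a factor of the antrum and duodenum, one of 4.43. GAST, the gene of the antral hormone gastrin, was not on that list of antrum and intestine. Its mean of 6.19 lay above the median feature. Of the 6 genes, only TPH1 had a mean under that median. CA piglet 4 stood farthest out on the first principal component (score 26.9, the others between -17.4 and 10.7), a component that held 26.3% of the variance, and its array weight was the lowest, 0.267.

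HDC, the histidine decarboxylase that makes histamine, was higher in every CA piglet than in 5 of the 6 SA piglets, whereas SA piglet 9 had the highest level of all. In the CA piglets its log2 intensity ranged from 6.86 to 7.52 with a median of 7.12, and in the SA piglets from 6.23 to 8.11 with a median of 6.52. The groups overlapped through SA piglet 9 alone, since the next SA piglet was at 6.62. The log2 fold change, CA over SA, was 0.42 (standard error 0.26, n = 6 and 6), or 1.34-fold with a 95% interval of 0.906 to 1.97, which was not larger than the spread between piglets (limma adjusted p = 0.999, two-sided exact permutation p = 0.195). Without SA piglet 9, which was left out after its value had been seen, the log2 fold change was 0.69 (standard error 0.12, n = 6 and 5), or 1.62-fold with an interval of 1.35 to 1.94. HDC then had the third smallest p among all genes, and still did not pass (limma unadjusted p = 7.51e-05, adjusted p = 0.152, exact permutation p = 0.00216, the smallest that 462 arrangements can give). SA piglet 9 was the only piglet through which the groups overlapped. Leaving it out therefore fixed both the separation of the groups and this smallest exact p. Neither these nor the limma p are evidence beyond the values themselves. Without it, every CA piglet lay above every SA piglet in 0.495% of all genes, and separation in the other direction is not given here. Nothing in the labels sets SA piglet 9 apart, and whether its label is right was not tested. A second feature of HDC on the array also had SA piglet 9 highest, at 7.96, and CA piglet 1 next, at 7.43 (Pearson r between the 2 features 0.918 over 12 piglets). On that feature the log2 fold change was 0.25 (standard error 0.27) with all piglets and 0.51 (standard error 0.15) without SA piglet 9.

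**Figure D1:**
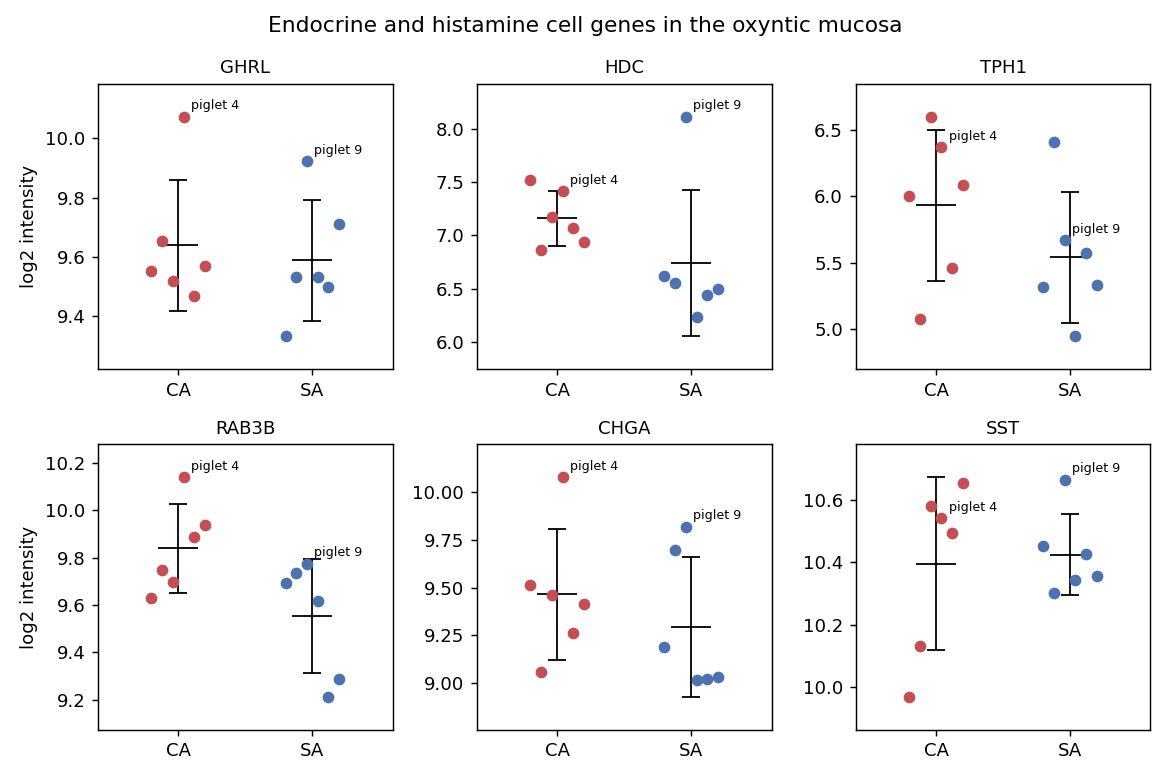
Log2 intensity of the 6 genes in each piglet (points), with the mean and SD of the 6 CA and the 6 SA piglets (lines); each panel has its own scale. HDC of SA piglet 9 lies at 8.11, over 5 SA piglets at 6.23 to 6.62, and CA piglet 4 has the highest GHRL, RAB3B and CHGA.

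The histamine that HDC makes is sensed by parietal cells through HRH2, the H2 receptor, and CCKBR, the gastrin receptor, sits on the enterochromaffin-like and parietal cells. HRH2 ranged from 7.62 to 8.50 in the CA and from 6.90 to 8.18 in the SA piglets, and its log2 fold change was 0.47 (standard error 0.20, limma unadjusted p = 0.0360). CCKBR ranged from 6.78 to 7.81 in the CA and from 6.03 to 7.66 in the SA piglets, with a log2 fold change of 0.43 (standard error 0.25, unadjusted p = 0.107). In both receptors SA piglet 9 was the highest of its group, as it was in HDC, and the groups overlapped. Without that piglet the log2 fold changes were 0.60 for HRH2 (limma unadjusted p = 0.00598) and 0.61 for CCKBR (limma unadjusted p = 0.0155). Leaving out the highest SA piglet, chosen on its HDC value, by itself raised both differences, so that these p are not further evidence. Of 6 measured genes of histamine handling and its inputs, out of 10 listed, 5 were higher in CA and 1 lower, and their median log2 fold change was 0.18 against 0.0063 over all genes, but 0.10 without CA piglet 4 and 0.09 over the 5 genes above the median feature. SLC22A3, a transporter that clears histamine, was the lower one at -0.12 (standard error 0.12), and AOC1, the diamine oxidase that degrades histamine, was at 0.09 (standard error 0.07), both named for these roles with their values known. SLC18A2, which loads histamine into vesicles, and HNMT, which methylates it, were not analysed here. None of the 6 genes passed the adjusted test (limma adjusted p = 0.999), as 0% of all genes did. Of the 6, only HRH2 had an unadjusted p under 0.05, as compared to 3.28% of all genes. Without CA piglet 4 HRH2 was no longer under 0.05 and SLC22A3 was, against 4.6% of all genes.

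Mast cells, the other source of HDC, were followed by 4 of 10 listed markers. Their summed log2 level ranged from 24.41 to 26.29 in the CA and from 24.38 to 26.29 in the SA piglets. SA piglet 9, with the highest HDC, had the lowest mean of these markers, 6.095, just under CA piglet 3 at 6.102. Only 2 of the 4 markers, KIT and MS4A2, lay above the median feature, and SA piglet 9 was lowest in neither. Its KIT was at 8.04 (CA piglet 4 at 7.46) and its MS4A2 at 6.17 (SA piglet 8 at 5.84). GATA2, which lay under the median feature, was lowest in SA piglet 9, at 5.29. SA piglet 9 also had the lowest mean of the smooth muscle markers, 8.88, and of the enteric neuron markers, 5.19. The part of mast cells in the level of HDC was not tested. MS4A2, the beta chain of the IgE receptor, ranged from 5.96 to 6.75 in the CA piglets and from 5.84 to 6.67 in the SA piglets (log2 fold change 0.10, standard error 0.15). GATA2, a factor of mast and blood stem cells, was at 0.06 (standard error 0.09). CPA3 and the tryptases were not analysed here.

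RAB3B, a small GTPase of regulated exocytosis, had the smallest p of the 6 genes. It ranged from 9.63 to 10.14 in the CA piglets, with a median of 9.82, and from 9.21 to 9.77 in the SA piglets, with a median of 9.65. Of the CA piglets 3 were above every SA piglet, and 3 SA piglets were below every CA piglet, with SA piglets 11 and 12 lowest at 9.21 and 9.29. The log2 fold change was 0.29 (standard error 0.12, n = 6 and 6), or 1.22-fold with a 95% interval of 1.03 to 1.45. RAB3B was the 1 gene of 6 with an unadjusted p under 0.05 (limma p = 0.0271, exact permutation p = 0.0455), as compared to 3.28% of all genes, and none of the 6 passed after adjustment (adjusted p = 0.999), as 0% of all genes did. Without SA piglet 9, HDC and RAB3B had an unadjusted p under 0.05, 2 of 6 genes against 6.16% of all genes, the former with the piglet chosen on its value, and without CA piglet 4 the unadjusted p of RAB3B was 0.0634.

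CHGA, chromogranin A, is a protein of the dense-core granules that nearly all endocrine cells of the gut share. It ranged from 9.06 to 10.08 in the CA piglets, with a median of 9.44, and from 9.02 to 9.82 in the SA piglets, with a median of 9.11. SA piglets 10, 11 and 12 lay together at 9.02 to 9.03, under every CA piglet, whereas SA piglets 8 and 9 lay above all CA piglets but piglet 4. The log2 fold change of 0.17 (standard error 0.18, 95% interval -0.22 to 0.56) was within the spread between piglets (limma adjusted p = 0.999, exact permutation p = 0.418), and it was 0.05 without CA piglet 4.

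**Figure D2:**
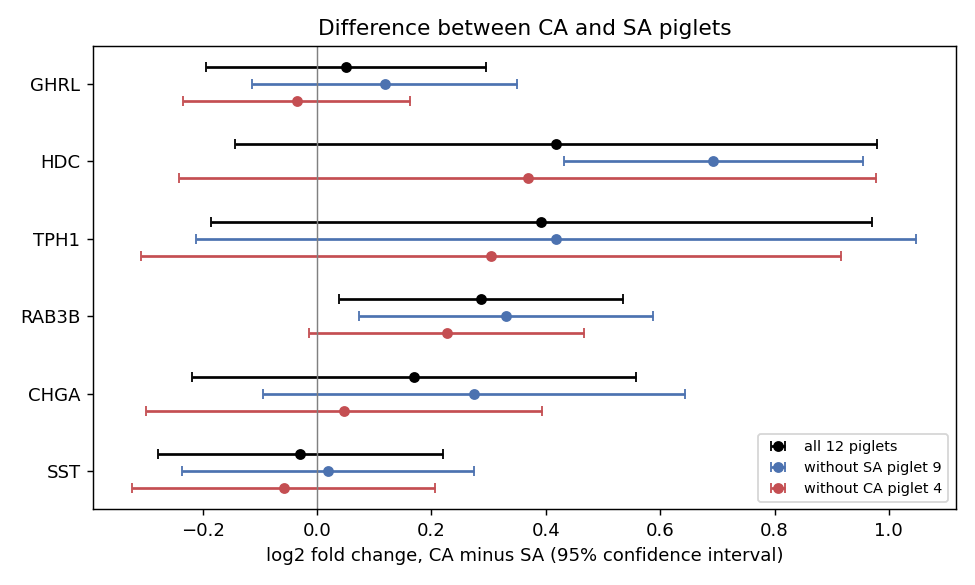
Log2 fold change (CA over SA) for each of the 6 genes, with its 95% confidence interval from limma, over all piglets (black), without SA piglet 9 (blue) and without CA piglet 4 (red). The interval of HDC runs from -0.14 to 0.98 with all piglets and from 0.43 to 0.95 without SA piglet 9.

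None of the other genes of granules and vesicle release passed after adjustment. Of 13 measured out of 20 listed, 9 were higher in CA and 4 lower, with a median log2 fold change of 0.05 and 0 genes at an unadjusted p under 0.05. SYT7, a calcium sensor of exocytosis, was at 0.28 (standard error 0.17), and SYTL4, a granule-docking partner of RAB27A with a signal near the dim end of the array, at 0.09 (standard error 0.05). CHGB, chromogranin B, which was picked out after its values were seen, ranged from 6.51 to 8.14 in the CA and from 6.70 to 7.60 in the SA piglets, with CA piglet 4 highest as in CHGA. RAB3A and RAB3D, close relatives of RAB3B that were picked out in the same way, were at 0.07 (standard error 0.09) and -0.04 (standard error 0.07).

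GHRL, the precursor of ghrelin, differed between the groups by less than the spread between piglets. Its log2 intensity ranged from 9.47 to 10.07 in the CA piglets, with a median of 9.56, and from 9.33 to 9.92 in the SA piglets, with a median of 9.53. CA piglet 4 and SA piglet 9 were the highest of their groups, and the other 5 CA piglets lay within 9.47 to 9.65. The log2 fold change was 0.05 (standard error 0.11), and the 95% interval of the fold difference was 0.874 to 1.23 (exact permutation p = 0.695). Without CA piglet 4 the log2 fold change was -0.04. MBOAT4, the enzyme that acylates ghrelin into its active form, picked out for this role, was at 0.06 (standard error 0.10), and GHSR, the ghrelin receptor, at 0.04 (standard error 0.07). Both lay under the median feature of the array.

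SST, the precursor of somatostatin, differed least between the groups in log2 fold change (-0.03, standard error 0.12, 95% interval of the fold difference 0.824 to 1.17, exact permutation p = 0.823). It ranged from 9.97 to 10.66 in the CA piglets, with a median of 10.52, and from 10.30 to 10.67 in the SA piglets, with a median of 10.39. CA piglets 1 and 2 were lowest, at 9.97 and 10.13, and the remaining 4 CA piglets lay at 10.49 or higher. The sign of the difference turned when CA piglet 1 (0.06), CA piglet 2 (0.02) or SA piglet 9 (0.02) was left out. SSTR1, a somatostatin receptor, was at 0.26 (standard error 0.20), and all 3 measured receptors of ghrelin and somatostatin, out of 6 listed, were higher in CA without passing the test.

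Among the other peptide hormones of the gut, 7 of 11 measured were higher in CA and 4 lower, out of 13 listed, with a median log2 fold change of 0.02. CCK, cholecystokinin, ranged from 5.32 to 5.92 in the CA and from 5.77 to 6.47 in the SA piglets, with a log2 fold change of -0.34 (standard error 0.13, limma unadjusted p = 0.0163, adjusted p = 0.999). PPY, pancreatic polypeptide, ranged from 5.13 to 5.72 in the CA and from 5.64 to 6.62 in the SA piglets, with one of -0.41 (standard error 0.16, unadjusted p = 0.0207, adjusted p = 0.999). Both genes lay at or near the median feature, where the array signal is dim, and both groups overlapped. Of 7 measured genes of prohormone processing, out of 8 listed, 5 were higher in CA and 2 lower, with a median of 0.06 and 0 at an unadjusted p under 0.05. PCSK1, a convertase of prohormones, was at 0.20 (standard error 0.16), and FURIN, a convertase found in most cells, at 0.18 (standard error 0.12).

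**Figure D3:**
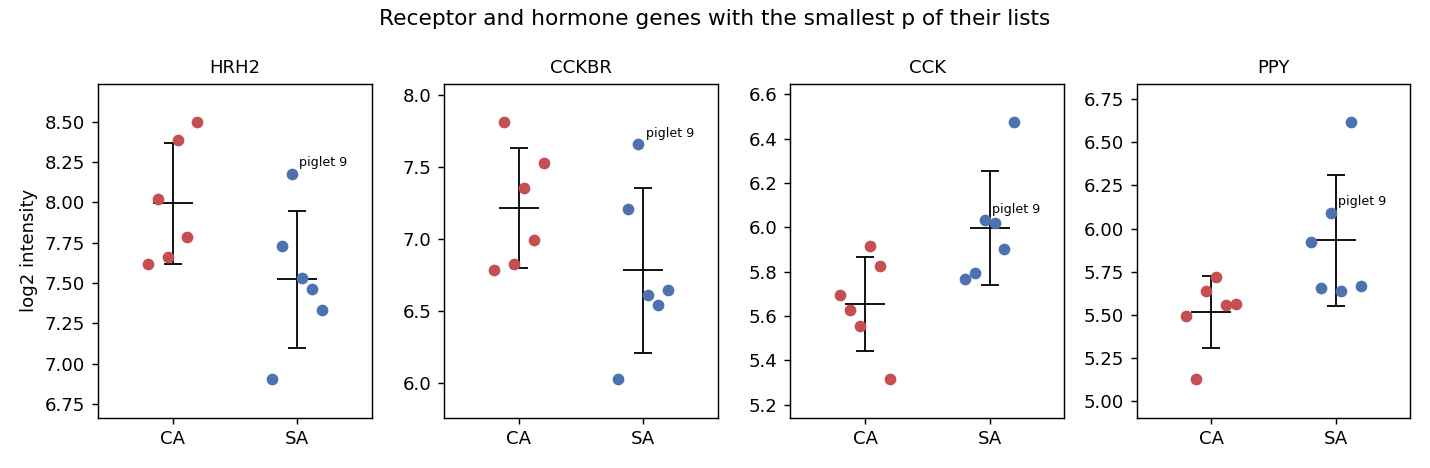
Log2 intensity of HRH2, CCKBR, CCK and PPY in each piglet (points), with the mean and SD of each group of 6 (lines); each panel has its own scale. The log2 fold changes are 0.47 and 0.43 for the receptors HRH2 and CCKBR and -0.34 and -0.41 for the hormones CCK and PPY, and no gene passed after adjustment.

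TPH1, the tryptophan hydroxylase that starts serotonin synthesis outside the brain, had the widest spread of the 6 genes within groups. It ranged from 5.07 to 6.60 in the CA piglets, with a median of 6.05, and from 4.95 to 6.41 in the SA piglets, with a median of 5.45. The groups overlapped over nearly their whole range, with CA piglet 2 and SA piglet 10 lowest and CA piglet 3 and SA piglet 8 highest. The log2 fold change was 0.39 (standard error 0.27, 95% interval of the fold difference 0.879 to 1.96, limma adjusted p = 0.999, exact permutation p = 0.225). Of 10 measured genes of serotonin synthesis, transport and receptors, out of 17 listed, 5 were higher and 5 lower in CA, with a median of 0.01 and 0 at an unadjusted p under 0.05. HTR2B, a serotonin receptor, was at -0.37 (standard error 0.23), and HTR4, a receptor that acts on gut motility, at -0.30 (standard error 0.18). Without SA piglet 9, the lowest SA piglet in HTR2B, that gene was at -0.50 (limma unadjusted p = 0.0403), and the omission by itself widened this difference. DDC, the decarboxylase that follows TPH1 and that was picked out for this role, had means of 7.92 and 7.93 in the CA and SA piglets.

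Transcription factors of endocrine cells were mostly dim, with 2 of 10 measured, out of 20 listed, above the median feature. Of the 10, 8 were higher and 2 lower in CA, with a median log2 fold change of 0.07, and the 2 above the median feature had a median of -0.05. LMX1A, a factor of enterochromaffin cells, was at 0.24 (standard error 0.13), and INSM1, a factor of endocrine cell differentiation, at 0.22 (standard error 0.16), with 0 genes at an unadjusted p under 0.05. Over the 7 lists of endocrine, histamine and serotonin genes together, 42 of 60 measured genes were higher in CA, as compared to 52.7% of all genes, and their median log2 fold change was 0.05 against 0.0063. Without CA piglet 4 the median of the 60 was 0.02. Of these 60, 0 passed after adjustment and 3 (5.00%) had an unadjusted p under 0.05, namely HRH2, CCK and PPY, as compared to 3.28% of all genes. Without SA piglet 9 there were 5 of 60, with CCKBR and HTR2B added, against 6.16% of all genes, and without CA piglet 4 there were 3, with SLC22A3 in place of HRH2, against 4.6% of all genes.

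The 6 genes varied between piglets more than most genes of the array. The SD within groups was 0.53 for TPH1, 0.52 for HDC and 0.35 for CHGA on the log2 scale, which was larger than that of 98.4%, 98.3% and 94.1% of all genes. SST, RAB3B and GHRL had an SD of 0.22, 0.22 and 0.21, larger than that of 75.0%, 74.6% and 73.4% of all genes. CA piglet 4 was above the mean of all piglets in all 6 genes, by 0.47 on average, and SA piglet 9 in 5 of them, by 0.36. SA piglet 10 was under the mean in all 6, and its average deviation was -0.35.

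**Figure D4:**
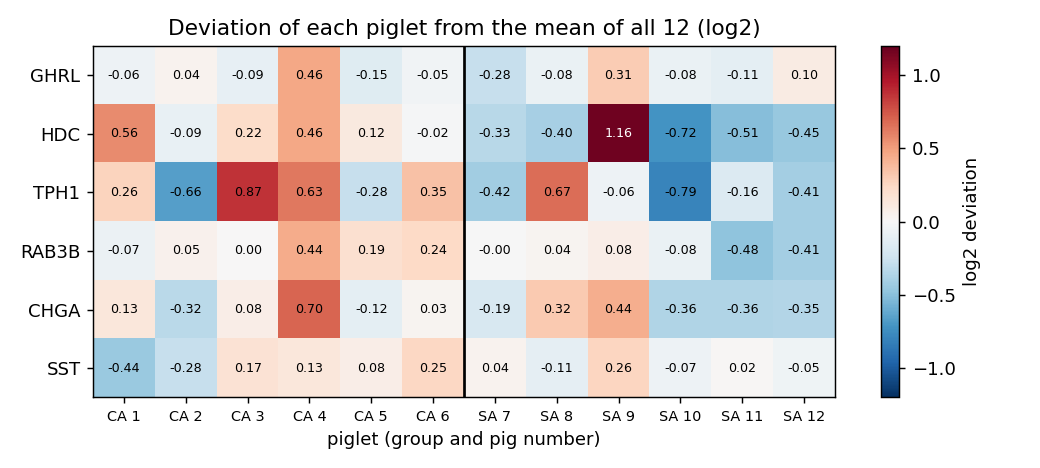
Deviation of each piglet (columns) from the mean of all 12 piglets for each of the 6 genes (rows), on the log2 scale; red is above and blue is below the mean. CA piglet 4 is above the mean in all 6 rows and SA piglet 10 below it in all 6, and HDC of SA piglet 9 has the largest deviation, 1.16.

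All 15 pairs of the 6 genes correlated positively across the 12 piglets, with Pearson r from 0.218 to 0.739 and a median of 0.385, but none passed after adjustment over the 15 pairs. The values of a pair come from the same arrays and share their normalization. TPH1 and CHGA had the highest r, 0.739 (permutation p = 0.00655, adjusted p = 0.0688), with a Spearman rho of 0.762 (permutation p = 0.00561, adjusted p = 0.0421). Without CA piglet 3 and SA piglet 8, which lay farthest from the median of TPH1, r was 0.804 (permutation p = 0.00463), and within the CA and the SA group it was 0.720 and 0.725 (exact permutation p = 0.0958 and 0.0819). This pair passed after adjustment when SA piglet 9 (adjusted p = 0.0228), SA piglet 8 (0.0241) or CA piglet 3 (0.0406) was left out, by permutation. HDC and CHGA had r = 0.713 (permutation p = 0.00918, adjusted p = 0.0688) and rho = 0.811 (permutation p = 0.00212, adjusted p = 0.0318), and without SA piglets 9 and 10 r was 0.608 (permutation p = 0.0590). Within the CA and the SA group r of HDC and CHGA was 0.724 and 0.754 (exact permutation p = 0.0847 and 0.0264).

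The relations of GHRL with CHGA and with HDC rested on CA piglet 4 and SA piglet 9. GHRL and CHGA had r = 0.648 over all piglets (permutation p = 0.0219, adjusted p = 0.0821, rho 0.441 with permutation p = 0.155) and r = -0.16 without these 2 piglets (permutation p = 0.665). GHRL and HDC had r = 0.575 (permutation p = 0.0518, adjusted p = 0.156, rho 0.378 with permutation p = 0.229) and r = 0.0045 without them. RAB3B and CHGA had r = 0.677 (permutation p = 0.0163, adjusted p = 0.0813, rho 0.664 with permutation p = 0.0221), which was 0.576 without SA piglets 11 and 12 (permutation p = 0.0802). Pairs with SST had r from 0.218 to 0.318.

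**Figure D5:**
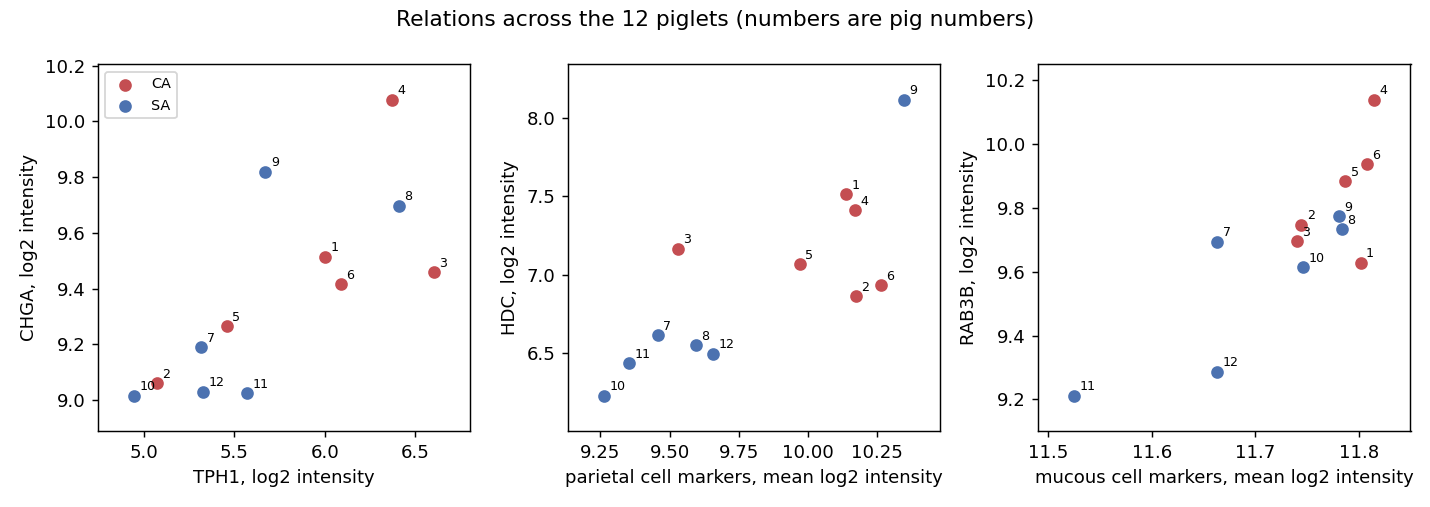
Log2 intensity of CHGA against TPH1, of HDC against the mean of 9 parietal cell markers, and of RAB3B against the mean of 3 mucous cell markers, with 1 point per piglet and its pig number. Pearson r over the 12 piglets is 0.739, 0.777 and 0.826, and SA piglets 11 and 12 form the low end of the third panel.

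Beside 6 lists of markers of other cells, 2 of 36 relations passed after adjustment. HDC went with the mean of the 9 parietal cell markers (r = 0.777, permutation p = 0.00232, adjusted p = 0.0418 over 36 relations, rho 0.713 with permutation p = 0.0118 and adjusted p = 0.0965). It was 0.659 without SA piglets 9 and 10 (permutation p = 0.0423), 0.959 within the SA piglets (exact permutation p = 0.0167) and -0.06 within the CA piglets (exact permutation p = 0.939), so that the relation did not hold within the CA group. The r of 0.959 includes SA piglet 9, far the highest SA piglet in HDC (8.11) and in the marker mean (10.35, the next at 9.66). Within the SA group r without it was not computed. Over all piglets but SA piglet 9 r was 0.736 (permutation p = 0.0132). All 9 parietal cell markers were higher in CA, with a median log2 fold change of 0.36, and 5 of them had an unadjusted p under 0.05, as compared to 3.28% of all genes, whereas 0 passed after adjustment. Without SA piglet 9 there were 7 of 9, against 6.16% of all genes, and the median of all 9 was 0.51. Without CA piglet 4 there was 1, KCNE2, against 4.6% of all genes, and the median of all 9 was 0.40. Their summed log2 level ranged from 85.78 to 92.36 in the CA and from 83.37 to 93.13 in the SA piglets. SA piglet 9 had the highest mean of these markers, 10.35, so that leaving it out by itself raised the difference between the groups. RAB3B went with the mean of the 3 mucous cell markers GKN1, GKN2 and MUC6 of 6 listed (r = 0.826, permutation p = 0.00047, adjusted p = 0.0169, rho 0.762 with permutation p = 0.00558 and adjusted p = 0.0965). It was 0.533 without SA piglets 11 and 12 (permutation p = 0.118), so that this relation rested in part on them, and 0.588 and 0.839 within the CA and SA piglets (exact permutation p = 0.231 and 0.0208). The summed log2 level of these markers ranged from 35.22 to 35.45 in the CA and from 34.58 to 35.35 in the SA piglets. SA piglet 11 had the lowest mean of the mucous markers, 11.53, and the highest mean of the 2 measured smooth muscle markers, 10.32. Of the 3 mucous markers MUC6 varied most, with an SD of 0.17 in CA and 0.34 in SA. GKN1 had 0.08 and 0.07, and GKN2 0.06 and 0.05, so that the mean mostly followed MUC6. In SA piglet 11 MUC6 was lowest, at 9.93, but GKN1 was not, at 12.01. CA piglet 4 had the highest MUC6 of all piglets, 11.035, but the lowest GKN1 of the CA piglets, 11.94. Relations of RAB3B with single markers were not computed. The part of these other cells in the levels of HDC and RAB3B was not tested.

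The genes most like each of the 6 in pattern were sought over the 12 piglets among the 6273 (for TPH1, 6274) other genes above the median feature, with Pearson r as a description. HDC was followed most closely by RIT1, a GTPase related to Ras (r = 0.935, and 0.937 without CA piglet 4 and SA piglet 9), KIF16B, a kinesin motor (0.930), and KDM5B, a histone demethylase (0.909). CHGA was followed by ZNF496 (0.942), LRP11 (0.906) and TTPAL (0.905), and RAB3B by RNF185, a ubiquitin ligase (0.909), AP5S1 (0.891) and SMAD7, an inhibitor of TGFB signaling (0.890). GHRL was followed by ACSS1, a mitochondrial acetyl-CoA synthetase (0.925, but 0.752 without CA piglet 4 and SA piglet 9), MPND (0.913) and CUL7 (0.909). TPH1 had its closest genes at lower r, with ITPRIP (0.823), MUC2, the gel-forming mucin of the intestine (0.822), and ADPRH (0.819). SST was followed by HYKK (0.879), CSTF2, a factor of mRNA cleavage (0.800), and CREB3 (0.789). None of the 6 genes had another of the 6 among its closest 3.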

How the data were processed

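RNA of the oxyntic mucosa of 12 piglets (6 CA, 6 SA) was measured with strips of the Porcine Gene 1.1 ST array of Affymetrix, and the authors normalized them by Robust Multichip Analysis with Expression Console software (version not given in the sources used here). Each deposited value is an intensity on a linear scale, background-corrected, quantile-normalized and summarized by feature, and the deposited intensities were converted to log2. Of 27558 features, 11982 had 1 gene symbol in the platform annotation, 373 had several and 15203 were unnamed here. A gene identifier of RefSeq matched 10922 of the named features, and 0 symbols changed. For 969 genes with several features the brightest was kept, which gave 10912 genes. The number of sample columns not used was 0.

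CA and SA were compared over all genes with lmFit and eBayes of limma 3.58.1 in R 4.3.3, with Benjamini-Hochberg adjustment and neither a filter nor a covariate, since litter, pen and strip are not labelled per piglet. Single genes were also compared by two-sided exact permutation over 924 arrangements (smallest possible p 0.00216), and correlations by 100000 permutations, exact within groups. Python 3.11.15, numpy 2.4.6, pandas 2.3.3, scipy 1.17.1 and matplotlib 3.10.9 were used, and limma was tested on simulated data.

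The 6 genes and the lists were chosen with earlier results of these data known. Named genes were the 6, up to 2 genes of each list with the smallest p, the 3 genes closest in pattern to each, and defining tissue markers. Groups came from the labels, and pig numbers serve as replicate numbers. Arrays have no read depth, and their number limits the precision. Alternatives were the mean of all features, testing only genes above the median feature or every feature, a second quantile normalization, centring on array medians, array weights, a moderated variance with trend, linear or group-centred values for correlations, and leaving out each piglet. The second feature of HDC and the omission of CA piglet 4 together with SA piglet 9, and the counts of list genes without either, were chosen after seeing the data.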

Additional observations from a re-analysis of the deposited data

Results flagged for a closer look

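In 9 of 68 groups of 6 piglets, 1 piglet lay far from the other 5 by the size of its gap to the nearest one, and chance flags about 1 in 20 independent groups. These groups share the same piglets, and many of the genes were named by their p in these data. The count of 9 can therefore not be weighed against that rate. Among the endocrine and histamine genes these were HDC in SA piglet 9, at a log2 intensity of 8.11 with the next SA piglet at 6.62, and GHRL in CA piglet 4, at 10.07 with the next CA piglet at 9.65. SA piglet 9 was also the highest of its group in SYT7, at 6.85 (log2 intensity 6.845). CCK was highest in SA piglet 12, at 6.47 (6.475), and FURIN lowest in SA piglet 11, at 8.46. CA piglet 3 was the lowest of its group in ATP4A, at 11.82, and in KCNE2, at 8.29 (8.286), and the highest in FABP2, at 3.51 (3.508). BHLHA15 was highest in CA piglet 4, at 7.11 (7.109).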

How the results depend on the processing

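No gene passed the adjusted test under any of 20 alternatives (limma), with 243 to 672 genes at an unadjusted p under 0.05 when 1 piglet was left out and 358 over all piglets. HDC, TPH1, RAB3B and CHGA kept their direction under every alternative run, with log2 fold changes of 0.32 to 0.69, 0.26 to 0.57, 0.22 to 0.33 and 0.05 to 0.27 when 1 piglet was left out, and the second feature of HDC stood at 0.25. TPH1 and the antral and intestinal markers had no value with only genes above the median feature, since none of them was left. GHRL ranged from -0.0356 (without CA piglet 4) to 0.118, and SST from -0.0813 to 0.0563, with a turned sign without CA piglet 1 (0.0563), CA piglet 2 (0.0238) or SA piglet 9 (0.0191), and the cause was not tested. The number of pairs of genes with an adjusted p under 0.05 for Pearson r was 0 over all piglets (2 for Spearman rho), 0 to 1 when 1 piglet was left out and 1 without CA piglet 4 and SA piglet 9 together. With only genes above the median feature, the median log2 fold change of the ghrelin and somatostatin receptors was 0.259, over SSTR1 alone, and that of the endocrine transcription factors -0.0465, since fewer genes were tested. When 1 piglet was left out, the median of the histamine genes ranged from 0.101 (without CA piglet 4) to 0.263 and that of the parietal cell markers from 0.22 (without SA piglet 10) to 0.512 (without SA piglet 9), and the medians of the hormones (-0.0247 to 0.0385), prohormone processing (-0.00159 to 0.0956) and serotonin genes (-0.0299 to 0.0387) changed sign. No paired analysis was possible because pig numbers are not shared by the groups.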

Other observations

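CA piglet 3 stood at the high end of its group in some endocrine genes and at the low end in the mean of the parietal cell markers, although not in each of them. Its TPH1 was the highest of all 12 piglets at 6.60 and its SYT7 the highest at 7.34, whereas its parietal cell markers had the lowest mean of the CA piglets, 9.53, with KCNE2, the potassium channel subunit of acid secretion, at 8.29 against 9.14 or more in the other 5. SLC9A4, a sodium-proton exchanger on the same list, was instead the highest of the CA piglets there, at 11.05. Its HDC was at 7.17, within the range of the CA piglets, and its HRH2 was at 7.66, the second lowest of its group.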
